A study of Arabidopsis thaliana with 2 samples.

Results

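ATG3 and the ATG8 genes ATG8B to ATG8H of Arabidopsis thaliana encode the ubiquitin-like protein ATG8 of autophagy and the enzyme that attaches it to membranes. They were taken as the probe sets that the array annotation assigns to exactly 1 gene bearing one of these symbols, which gave 8 genes with 1 probe set each, of 13286 genes that have such a probe set and of 22746 Arabidopsis probe sets. The group was chosen by the log2 ratios between the genotypes that it shows on these same arrays, so those ratios are a description and not a test. Leaf RNA was compared between BOUNTIFUL, a gain-of-function line in the Ws-0 background, and wild-type Ws-0, with 1 array for each genotype. The labels give BOUNTIFUL an I/dSpm activation tag, an inserted element that carries an enhancer, in a locus called BOU, and they do not say how many plants were pooled. Both RNA samples came from the 4 youngest rosette leaves at developmental stage 6.50, of plants kept on a mix of compost, sand and perlite under glass (23 °C, days of 16 h).

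Autophagy delivers cytoplasm and organelles to the vacuole inside a double membrane, the autophagosome, and recycles their contents. ATG8 is trimmed at its end by the protease ATG4, activated by ATG7, passed to ATG3 and joined by ATG3 to the lipid phosphatidylethanolamine. The lipid-bound protein sits on the growing membrane and binds receptors that bring cargo. In Arabidopsis the family has expanded, with ATG8A to ATG8D, ATG8E to ATG8G, and ATG8H with ATG8I as its branches, and the last branch ends in the glycine that other members expose only after ATG4 has acted. Transcripts of the family are known to become more abundant in starved, darkened and ageing leaves.

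Each value is a MAS5 signal, the brightness summary of a probe set on the Affymetrix ATH1 array, in arbitrary units on a linear scale. The log2 ratio is BOUNTIFUL over Ws-0 after adding 7.82 units, the 20th percentile of all signals, to each signal, which understates differences of dim genes. Folds of a named gene are taken from the signals with nothing added. With 1 array a genotype no difference could be tested and no value has an SD. A lower signal in leaf RNA can mean fewer cells that make a transcript or less of it per cell, and these cannot be told apart here. The array medians were 38.9 and 39.0 units in BOUNTIFUL and Ws-0, and 11373 probe sets had a mean signal of at least the median of that mean, 39.9 units. All 8 genes passed this filter, and all their signals exceeded the highest of the 27 Bacillus subtilis control probe sets, at 21.9 units. ATG8E passed only through its Ws-0 signal of 109 units, since its BOUNTIFUL signal of 38.6 units lay below 39.9.

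Of the 8 genes, 7 had a lower signal in BOUNTIFUL than in Ws-0 and 1, ATG8H, had nearly the same signal in both. The median log2 ratio of the 8 was -0.55, against -0.06 over all passing probe sets, and 55.1% of those lay below 0. One gene, ATG8E, was at least 2-fold lower, as were 3.98% of passing probe sets, and none was at least 2-fold higher, as 4.63% were (8.62% in either direction). Of the 4 genes whose mean signal reached the 75th percentile (ATG3, ATG8C, ATG8D and ATG8F), all were below 0, against 54.0% of the probe sets there, and none was 2-fold different, against 10.1%.

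ATG3 (AT5G61500), the conjugating enzyme that hands ATG8 to the lipid, was read at 146 units in BOUNTIFUL and 213 units in Ws-0. BOUNTIFUL thus held 68.4% of the Ws-0 signal, a log2 ratio of -0.52. The enzyme gene lay among the ATG8 genes in the size of its difference and not apart from them.

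In the first ATG8 branch, ATG8B (AT4G04620) stood at 118 units in Ws-0 and 73.0 units in BOUNTIFUL, which gives a log2 ratio of -0.64. ATG8C (AT1G62040) had 137 units against 205, a log2 ratio of -0.56. ATG8D (AT2G05630) had 189 units against 279, a log2 ratio of -0.54. These genes, all for the ubiquitin-like protein itself, were lower in BOUNTIFUL and kept 61.9%, 66.8% and 67.9% of the Ws-0 signal in that order.

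The second branch held the gene with the largest difference of the 8. ATG8E (AT2G45170) stood at 109 units in Ws-0 and 38.6 units in BOUNTIFUL, a 2.83-fold lower signal and a log2 ratio of -1.33. Its close relatives differed less. ATG8F (AT4G16520) had 694 units against 1092, a log2 ratio of -0.65, and ATG8G (AT3G60640) had 74.6 units against 106, a log2 ratio of -0.46. ATG8G had the smallest difference of the 7 lower genes, at 1.41-fold.

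ATG8H (AT3G06420), of the branch that ends in the exposed glycine, was read at 47.4 units in BOUNTIFUL and 46.4 units in Ws-0. Its log2 ratio of 0.03 was the only one of the 8 above 0.

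**Figure D1:**
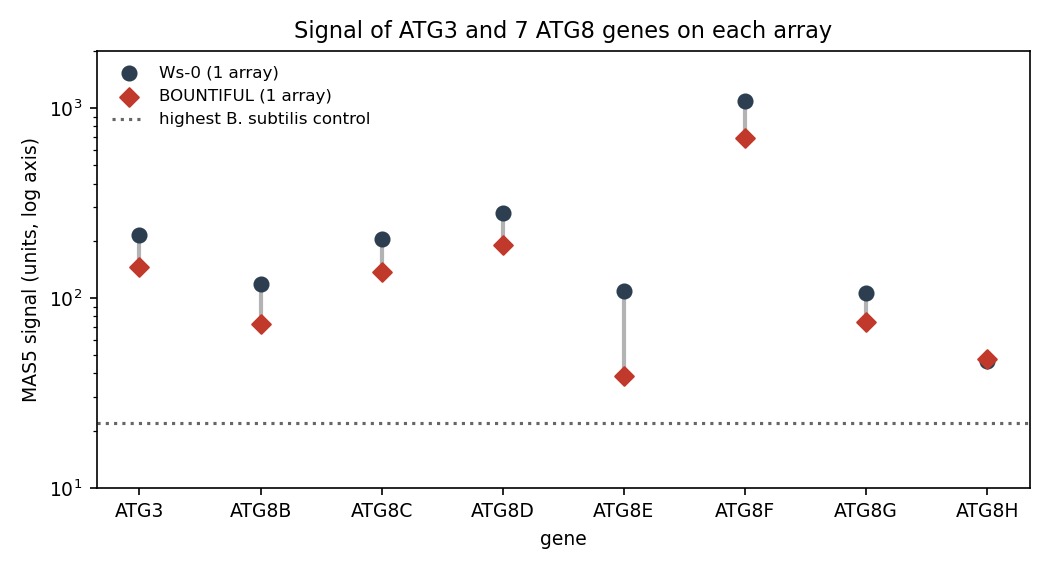
MAS5 signal in units (log axis) of ATG3 and 7 ATG8 genes on the BOUNTIFUL array (red diamonds) and the Ws-0 array (dark circles), 1 array each, with the highest Bacillus subtilis control, 21.9 units, as a dotted line. The red diamond lies below the dark circle for 7 genes, farthest for ATG8E at 38.6 against 109 units, while for ATG8H the points overlap at 47.4 and 46.4.

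The remaining ATG8 genes of Arabidopsis have probe sets that the annotation lists under older symbols, so that they fell outside the group. ATG8A (AT4G21980, annotated as APG8A) was read at 123 units in BOUNTIFUL and 156 units in Ws-0, which gives a log2 ratio of -0.33. ATG8I (AT3G15580), which the annotation calls APG8H and which is a different gene from ATG8H, had 431 units against 665, a log2 ratio of -0.62. With these, 9 ATG8 genes were measured, 8 of them below 0, with a median log2 ratio of -0.56. Over all passing probe sets, 55.1% were below 0 and the median was -0.06. Since 7 of the 9 belong to the group chosen by these ratios, this count is a description and no finding about the family. ATG8H and ATG8I, which share a branch, had log2 ratios of 0.03 and -0.62. With 1 array a genotype, whether these genes differ from each other could not be tested.

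Most of the 8 genes differed by a similar amount. Leaving out ATG8E and ATG8H, the log2 ratios of the other 6 ran from -0.65 to -0.46, a span of 0.19. A measure of error within these arrays comes from 33 other genes that each had a pair of passing probe sets. The log2 ratios of a pair disagreed by a median of 0.21 and, at the 95th percentile, by 0.77. The order of the 6 genes is therefore not resolved. ATG8E lay 0.68 below the next gene and ATG8H lay 0.49 above the next, both more than the median disagreement and less than its 95th percentile. That measure covers probe sets and not plants, and it cannot show an offset that all genes share between the arrays.

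Set among all passing probe sets, ATG8E was near the low end, with 1.71% of probe sets lower. For the other 6 lower genes, between 10.9% (ATG8F) and 19.2% (ATG8G) of probe sets were lower, so differences of their size were common on these arrays. For ATG8H the share was 57.4%, in the middle of the distribution. The SD of the log2 ratio over all passing probe sets was 0.62. None of the 8 probe sets carries the suffix that marks possible cross-hybridisation, although the ATG8 genes are similar in sequence and the probes were not examined here.

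**Figure D2:**
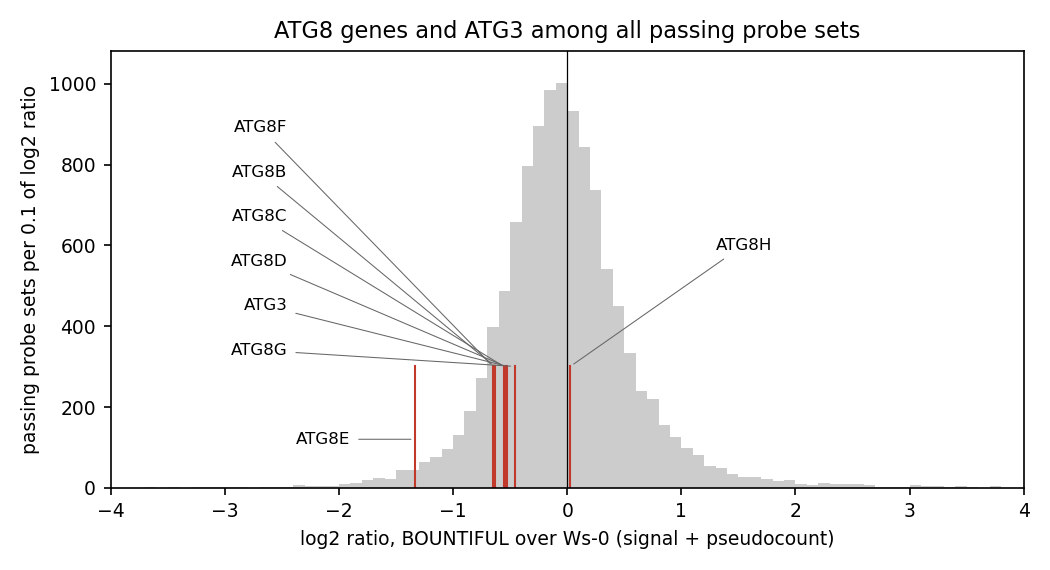
Number of passing probe sets in each 0.1 step of the log2 ratio of BOUNTIFUL over Ws-0 (grey bars, 11373 probe sets), with red lines at the 8 genes. ATG8E lies in the lower tail at -1.33, 6 genes lie together between -0.65 and -0.46 on the lower shoulder, and ATG8H lies near the centre at 0.03.

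The sizes of these log2 ratios rested on how the arrays were scaled, and the sign of 1 gene, ATG8G, with them, while the place of the genes among other genes changed little. All 18 probe sets for the hybridisation spikes (foreign transcripts put into the mix as controls) were lower on the BOUNTIFUL array, with mean log2 ratios of -0.35 for 9 newer and -0.55 for 9 older ones. Setting the newer spikes equal moved the median of all passing probe sets to 0.27 and that of the 8 genes to -0.21, with 7 still below 0 against 27.5% of all probe sets and ATG8E still 2-fold lower, at -1.03, against 1.78%. Setting the older spikes equal moved them to 0.45 and -0.025. Then 6 of the 8 lay below 0 against 16.8% of all probe sets, ATG8G was at 0.042, ATG3 at -0.0026, and ATG8E at -0.87 was no longer 2-fold lower, as 1.15% of probe sets were. Relative to the median of all passing probe sets, the median of the 8 genes was between -0.49 and -0.48 in each of 6 scalings. Over these 6 scalings, 1.70 to 1.87% of probe sets were lower than ATG8E and 54.8 to 57.4% were lower than ATG8H. For the 6 middle genes the share was 8.49 to 20.6%. Median centring and equal spikes shift all genes alike, so apart from the pseudocount they could not change these places. Only quantile normalisation and loess could, and there the median of the 8 genes relative to all was -0.49 and -0.48.

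**Figure D3:**
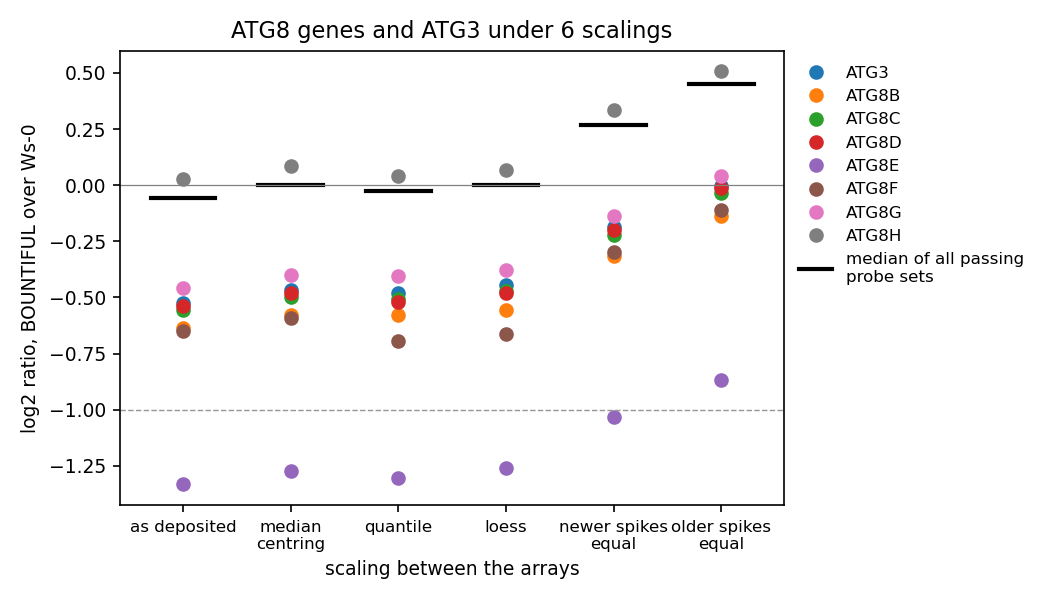
Log2 ratio of each of the 8 genes (coloured points) and the median of all passing probe sets (black bars) under 6 scalings between the arrays, with a dashed line at a 2-fold lower signal. The points and bars move up together with the newer and older spikes set equal, where the bar is at 0.27 and 0.45. Spike scaling shifts all genes alike, so there the gap between the bar and the main cluster must stay nearly the same. It also changes little with quantile normalisation and loess.

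Other genes of the pathway were read through 47 loci placed on lists of the autophagy machinery and its upstream regulators. Of these, 13 had a probe set of their own and 10 passed the filter. All 10 had log2 ratios below 0, against 55.1% of all passing probe sets, with a median of -0.40 and a range of -0.89 to -0.32. None was 2-fold lower, against 3.98% of all passing probe sets. ATG8A and ATG8I, described above, are among the 10. RAPTOR1 (AT3G08850), which brings substrates to the TOR kinase that holds autophagy in check, was read at 63.0 units in BOUNTIFUL and 122 units in Ws-0, a log2 ratio of -0.87. ATG101 (AT5G66930), a subunit of the ATG1 kinase complex that starts autophagosome formation, had 86.0 units against 119, a log2 ratio of -0.43. RAPTOR1 and ATG101, whose proteins have opposite roles in starting autophagy, both had lower signals.

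The other 6 of the 10 bear no symbol in the gene table and are given by locus alone. Their log2 ratios were -0.89 for AT2G37840, -0.57 for AT5G50230, -0.37 for AT4G34660, -0.36 for AT1G77890, -0.35 for AT3G59950 and -0.32 for AT3G61960. Below the filter, AT1G49180 had -0.53, AT3G53930 -0.43 and AT3G18770 -0.24, at mean signals of 35.7, 36.8 and 19.2 units. Both signals of AT3G18770 were under 21.9 units and so within the range of the controls. A second probe set of AT1G77890, at a mean of 12.2 units and so also within that range, had 0.23. One of AT2G37840, at 32.2 units, had -0.48. With the older spikes set equal the median of the 10 was 0.0915, with 4 below 0, where the median of all passing probe sets was 0.45 and 16.8% of them lay below 0. The ATG9 and ATG18 group had no probe set named here, nor did VPS34, VPS15, ATG5, ATG6, ATG7, ATG10, ATG12A, ATG12B, ATG13A, NBR1 or TOR. These are not analysed here.

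**Figure D4:**
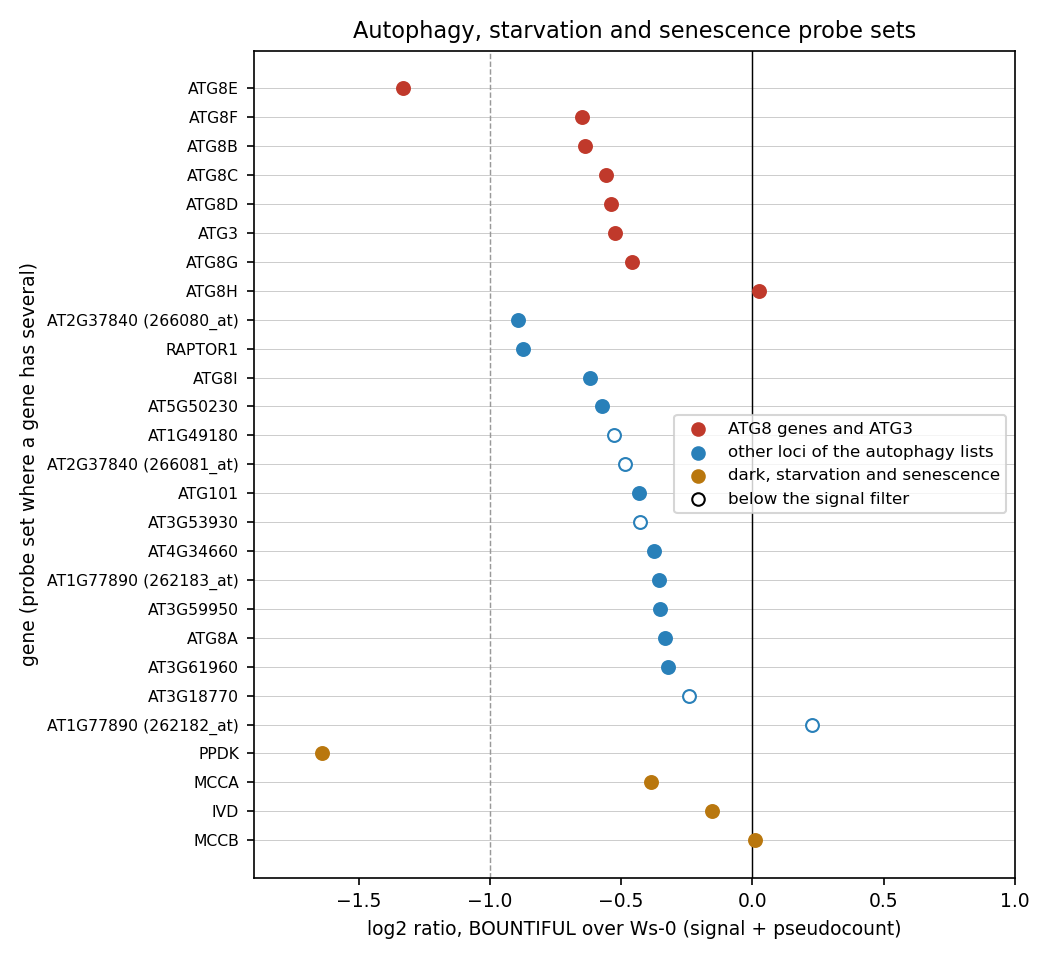
Log2 ratio of BOUNTIFUL over Ws-0 for each probe set of the 8 genes (red), of other loci on the autophagy lists (blue) and of starvation and senescence genes (brown), with open circles below the signal filter and a dashed line at a 2-fold lower signal. Filled blue points lie between -0.89 and -0.32, ATG8E at -1.33 and PPDK at -1.64 lie left of the dashed line, and the only points right of 0 are ATG8H, MCCB and a dim probe set of AT1G77890.

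Of 13 genes of dark, starvation and senescence responses, 4 had a probe set and passed the filter. Log2 ratios were below 0 for 3 of these, against 55.1% of all passing probe sets. At least 2-fold lower was 1 of the 4, against 3.98%. PPDK (AT4G15530), a pyruvate orthophosphate dikinase that works in nitrogen export from ageing leaves, was read at 312 units in BOUNTIFUL and 989 units in Ws-0, a log2 ratio of -1.64. MCCA (AT1G03090) and MCCB (AT4G34030), subunits of an enzyme of leucine breakdown, had log2 ratios of -0.39 and 0.01, the latter with nearly the same signal on both arrays. IVD (AT3G45300), an isovaleryl-CoA dehydrogenase of the same route, had -0.15. Markers of leaf photosynthesis that were measured had higher signals in BOUNTIFUL. These markers and the ATG8 genes were chosen with earlier results of these data known, so the contrast between them is no finding. All 3 with a probe set, of 7 listed, were bright, between 1514 and 3729 units. None was below 0, where 55.1% of all passing probe sets lay. Their log2 ratios were 0.22 for LHCB4.1, 0.74 for PSAE-1 and 0.79 for PSAN. That of LHCB4.1 was close to 0.21, the median disagreement of paired probe sets. Of 6 markers of root hair, flower, pollen and seed, 4 had a probe set and all were below the filter, with mean signals of 1.73 to 25.6 units. The part of leaf age or of a changed mix of leaf cells in the lower ATG8 signals was not tested.

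Likeness to the group was measured as the distance of a gene's log2 signals on the 2 arrays from the mean of the 8 genes. The nearest were AT5G58200, AT5G57610 and APL3 (AT4G39210), a large subunit of ADP-glucose pyrophosphorylase, with distances of 0.022, 0.026 and 0.030 and log2 ratios of -0.56, -0.55 and -0.55. With 2 arrays this likeness says only that brightness and difference were similar.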

How the data were processed

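RNA of 1 BOUNTIFUL and 1 Ws-0 sample was hybridised to ATH1 arrays. The deposited values are linear intensity signals from MAS5 (per the submitters' processing notes), with no version stated in the sources used here. Once the lowest and highest 2% were trimmed, both arrays averaged 100.01 units, so they had been scaled before deposit and were not scaled again. The 64 control probe sets were left out of ratios. A pseudocount of 7.82 units (20th percentile) was added before log2, probe sets with a mean signal under 39.9 units were left out of backgrounds, and passing probe sets of a gene were averaged. A gene was called from a 2-fold difference. The platform annotation of 2016 assigns 13513 of 22746 probe sets to 1 gene. Symbols were updated through the TAIR10.1 gene table, whose coordinates are not printed. Named were the 8 genes, every locus of the autophagy lists with a probe set of its own, up to 6 starvation and senescence genes, and the 3 genes nearest in signal. The genes and lists were chosen with earlier results of these data known. The calculations were tested on simulated arrays. Python 3.11.15, numpy 2.4.6, pandas 2.3.3 and statsmodels 0.14.6 were used. The number of arrays, 1 for each genotype, limits the precision, and no p-value was computed. The 11 alternatives tried covered scaling, pseudocount, filter, cross-hybridisation suffixes and the choice of probe set.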

Additional observations from a re-analysis of the deposited data

How the results depend on the processing

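No paired analysis was possible because only 1 array was made of BOUNTIFUL and 1 of Ws-0, and leaving an array out was not possible either. The alternatives for scaling were median centring, quantile normalisation, loess (span 0.3) and equal newer or older spikes. The pseudocount was dropped or set at 24.8 units (40th percentile), and the filter was dropped or raised to 116 units (75th percentile). Probe sets with cross-hybridisation suffixes were removed, or only the brightest one was used for each gene. A value was taken as moved past 0.21, the median disagreement of paired probe sets. The median log2 ratio of the 8 genes, -0.55, was -0.21 on the newer spikes and -0.0246 on the older ones. That of the other autophagy genes, -0.40, was -0.0852 and 0.0915, with 4 of 10 below 0 in the latter, where 16.8% of all passing probe sets lay below 0. The median of all passing probe sets was 0.27 and 0.45 in these scalings. ATG8G turned to 0.0421 and the count of 2-fold different genes went from 1 to 0 with the older spikes. Scaling by spikes multiplies every BOUNTIFUL signal by 1 factor, which accounts for these shifts. The filter at the 75th percentile kept 4 of the 8 genes and 3 other autophagy genes, so the counts changed because fewer genes enter. All 4 and all 3 were below 0, against 54.0% of the probe sets there. Of the 4 genes, 0 were 2-fold different, against 10.1%. ATG8E ranged from -1.50 with no pseudocount to -0.87 with the older spikes over 10 alternatives, and ATG8H from 0.021 to 0.51. Signals under 21.9 units cannot be told from background.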

Other observations

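The 8 genes lie on 5 chromosomes, and the nearest measured gene on each side was examined, a comparison chosen after the data were seen. Since the 8 were chosen by their log2 ratios, their distance from the neighbours is no finding, and only the neighbours' own values are given. Of the 16 neighbours, 6 were below 0 (55.1% of all passing probe sets were) and 10 above, with a median log2 ratio of 0.08 against -0.06 over all passing probe sets. None was 2-fold lower and 2 were 2-fold higher, against 3.98% and 4.63% of all passing probe sets. The 2 that were 2-fold higher were AT2G45180, beside ATG8E, at 1.20 and AT4G16590, beside ATG8F, at 3.45. On the other side of ATG8E and ATG8F lay AT2G45060 at 0.23 and AT4G16510 at 0.11. Genes between the 8 genes and their neighbours that had no named probe set or were below the filter were skipped, so the neighbours need not be adjacent.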
